A study of Mus musculus with 4 samples.

Results

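The mRNAs of 28 genes of cholesterol synthesis and lipid transport were followed in newborn mouse brain. They comprise 7 genes of the mevalonate and isoprenoid arm, 11 of the squalene and sterol arm, 5 regulators of the SREBP system and 5 genes of lipid transport. They were chosen by name for their known roles, with earlier results of these data known. The arrays held 26185 GenBank accessions with a probe measured on all 4 arrays. All 28 had a probe well above background on each of the 4 arrays, so that no member was lost to a filter on dim signals. None differed between TiO2-H and Sham at a Benjamini-Hochberg adjusted p under 0.05 in limma, and none was past 1.5-fold or 0.67-fold on the arrays of either sex label. Hmgcs1 and Idi1, both of the mevalonate and isoprenoid arm, stood highest among the members, at 1.17-fold (95% interval 1.02 to 1.35) and 1.09-fold (95% interval 1.00 to 1.18) of Sham.

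The samples were whole brains of C57BL/6J offspring collected 1 day after birth. Dams of the TiO2-H group had received 100 μg of titanium dioxide nanoparticles into the trachea during pregnancy, and dams of the Sham group a vehicle without particles, made from the same suspension by removing them. The labels give the day of exposure as gestational day 10.5 in the protocol and as gestational day 14 in the source name, and which of them holds was not settled here. RNA of 2 offspring per dam was pooled for each of the groups Sham male and Sham female (5 dams) and TiO2-H male and TiO2-H female (6 dams), and each pool was hybridized to 1 one-color array, where a probe's spot is brighter the more of its RNA is present. The male and female pools of an exposure came from the same dams. A pool of whole brains carries no spread between animals, and in such bulk RNA fewer cells of a type and less RNA per cell cannot be told apart.

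Hardly any cholesterol passes from the blood into the brain, so the developing brain makes its own. Acetyl-CoA is built up to mevalonate, then to isoprenoid units, farnesyl diphosphate and squalene, and squalene is closed into lanosterol and trimmed to cholesterol. When sterol in the endoplasmic reticulum is low, Scap carries the SREBP transcription factors to the Golgi, where they are cut and released to switch on most of these enzymes, while Insig proteins hold Scap back when sterol is plentiful. Astrocytes pass cholesterol to neurons on lipoprotein particles that carry Apoe and are loaded by ABC transporters.

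SREBPs bind sterol response elements near the transcription start, commonly beside sites for NF-Y and Sp1. The 250 bases before the start of 4 members are printed here from RefSeq on build GRCm38.p6. Hmgcs1 and Idi1 are shown because they stood highest, Acat2 because it holds the same sterol response element core as Hmgcs1, and Insig1 because it is the classic feedback target. Capitals mark CACCCCAC, the core of a sterol response element, and CCAAT (or ATTGG, the same box on the other strand), which NF-Y binds. The stretches lie at chr13:119690101-119690350 on the plus strand (Hmgcs1), chr13:8885356-8885605 on the plus strand (Idi1), chr5:28071162-28071411 on the plus strand (Insig1) and chr17:12960726-12960975 on the minus strand (Acat2), each written in the direction of transcription.
Hmgcs1: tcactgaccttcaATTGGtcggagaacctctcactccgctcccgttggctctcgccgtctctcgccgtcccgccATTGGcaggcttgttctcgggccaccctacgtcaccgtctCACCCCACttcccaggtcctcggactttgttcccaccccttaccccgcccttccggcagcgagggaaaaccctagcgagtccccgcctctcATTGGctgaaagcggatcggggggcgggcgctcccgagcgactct
Idi1: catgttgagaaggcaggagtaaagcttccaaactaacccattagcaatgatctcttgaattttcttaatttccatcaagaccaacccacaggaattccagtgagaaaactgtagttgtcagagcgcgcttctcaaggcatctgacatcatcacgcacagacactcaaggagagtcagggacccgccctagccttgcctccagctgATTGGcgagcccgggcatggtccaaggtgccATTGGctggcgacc
Insig1: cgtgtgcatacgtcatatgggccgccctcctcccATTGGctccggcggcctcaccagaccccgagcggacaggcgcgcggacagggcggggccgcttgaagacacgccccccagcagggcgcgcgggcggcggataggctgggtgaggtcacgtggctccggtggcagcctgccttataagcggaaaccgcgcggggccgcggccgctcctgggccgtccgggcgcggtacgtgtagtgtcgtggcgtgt
Acat2: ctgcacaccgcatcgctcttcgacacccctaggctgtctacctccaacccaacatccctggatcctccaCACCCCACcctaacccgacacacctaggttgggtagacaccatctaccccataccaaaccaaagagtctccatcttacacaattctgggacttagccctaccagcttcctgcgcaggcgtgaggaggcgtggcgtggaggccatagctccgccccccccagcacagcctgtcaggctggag

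In Hmgcs1 the match to CACCCCAC began 136 bases before the start, with matches to CCAAT on either strand beginning 237, 176 and 45 bases before it. Idi1 held CCAAT matches at 45 and 14 bases and Insig1 held 1 at 216 bases, and neither held CACCCCAC. Acat2 held CACCCCAC at 181 bases and no CCAAT. Both strands were searched, and the CACCCCAC matches overlapped no match of the other motifs. The promoter table held 23 of the 28 members with 33 starts in all. CACCCCAC stood before 2 of these 33 starts, against 2.58% of all 32851 starts in the table. CCAAT stood before 20 of the 33 against 33.8% of all starts, and GGGCGG, the box bound by Sp1, before 24 of the 33 against 32.7%. These are matches of letters and are given as a description, and several starts belong to 1 gene.

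Before the comparison, the arrays themselves were examined. The mRNAs of the X-inactivation RNA Xist and of the Y-linked genes Eif2s3y, Ddx3y and Uty went against the sex labels of the TiO2-H arrays: Xist was well above background on 2 arrays, Sham female and labelled TiO2-H male, and Eif2s3y was brightest on the Sham male array (processed signal 3519) and the array labelled TiO2-H female (4345), at 419 on the Sham female array and 6.40, not above background, on the array labelled TiO2-H male. On the Sham female array Eif2s3y and Ddx3y (142, against 1418 on Sham male) were still well above background. The source of this Y-linked signal in the Sham female pool was not tested. The TiO2-H arrays are called here what their labels call them, and the counts, the ranges and the values of Hmgcs1, Idi1 and Stard7 within a sex are also given with the arrays crossed, that is, labelled TiO2-H female against Sham male and labelled TiO2-H male against Sham female. The slide carried the Sham arrays in one row and the TiO2-H arrays in the other, so that slide row and exposure cannot be told apart. Signals are given below as multiples of each array's 75th percentile, which was 810 and 795 on the Sham arrays and 867 and 871 on the TiO2-H arrays.

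Across all mRNAs, 0% of 19463 had an adjusted p under 0.05 in limma (lowest adjusted p = 0.277). At an unadjusted p under 0.05, 10.4% of them were higher and 6.23% lower in TiO2-H. Of the members, 2 of 28 (7.14%) were higher by that criterion and 0 lower. With so few members these counts are near the shares of all mRNAs, and whether they differ from them was not tested. Leaving out 1 array leaves an exposure with a lone array, assumed to vary like the others, and the fit with 1 residual degree of freedom. The log2 difference of Hmgcs1 then ranged from 0.16 to 0.29 and that of Idi1 from 0.10 to 0.14. In simulated data for this comparison, with 200 of 19463 mRNAs changed, limma recovered 77.5% of 3-fold changes and 0% of 1.5-fold and of 1.2-fold changes at an adjusted p under 0.05, so that differences of the size seen in the members were below what it could call here. All 28 of the members' 95% intervals lay inside 1.5-fold in either direction. The median log2 difference of the members, TiO2-H minus Sham, was 0.03 (SD over the 28 genes 0.08), beside 0.01 for all mRNAs. Of the 28 members, 23 differed by less than 0.1 on the log2 scale. Only Hmgcs1 and Abcg1 differed by more than the error that the scanner software assigns to single spots, which came to between 0.14 and 0.19 for a log2 difference between the means of 2 arrays.

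**Figure D1:**
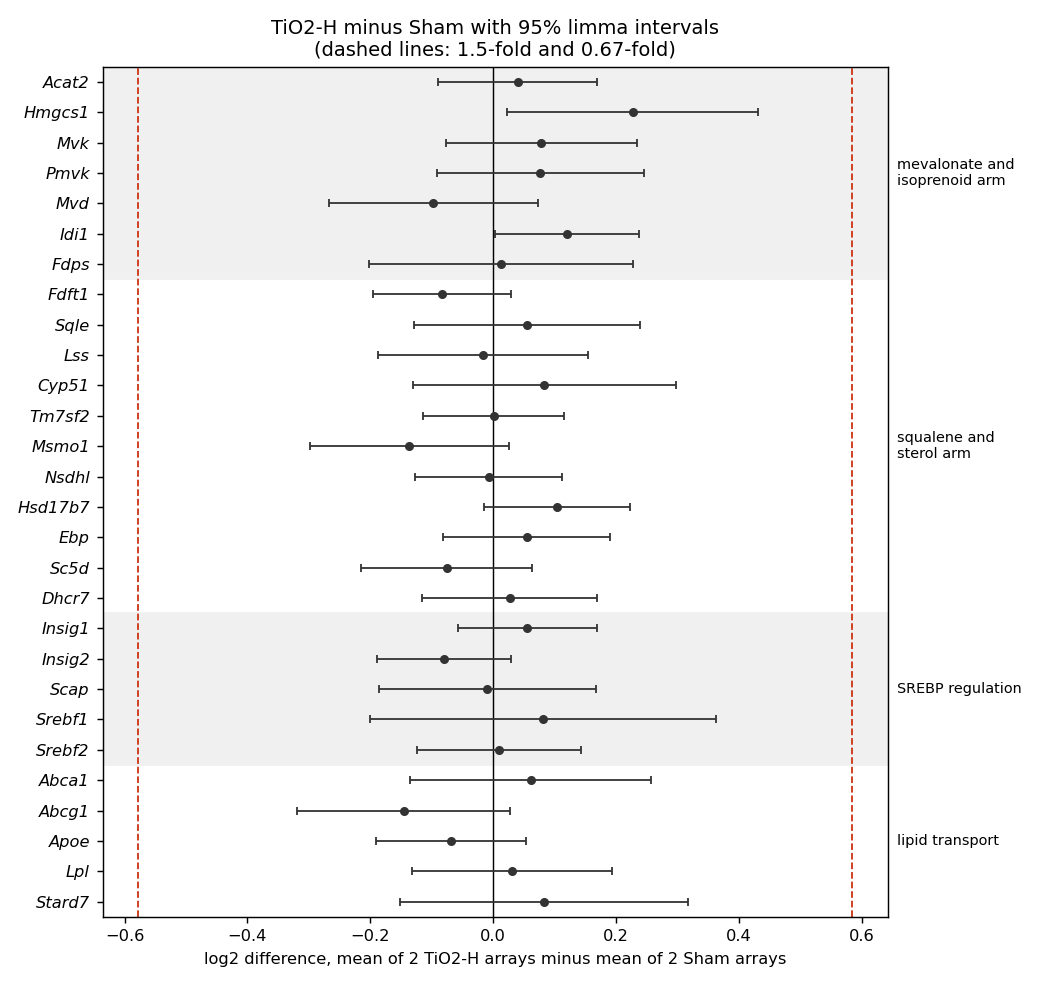
Log2 difference of each of the 28 mRNAs, the mean of the 2 TiO2-H arrays minus the mean of the 2 Sham arrays (x axis), by role (y axis); points are the differences, bars the 95% intervals of limma, and dashed lines 1.5-fold and 0.67-fold. The intervals of Hmgcs1 and Idi1 alone lie above 0, and all 28 intervals stay between the dashed lines.

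The enzymes of the mevalonate and isoprenoid arm had a median log2 difference of 0.08, and 6 of the 7 were above 0. Hmgcs1, the cytosolic HMG-CoA synthase of the early pathway, read 59.5 times the 75th percentile in Sham male, 65.0 in Sham female, 70.7 in labelled TiO2-H male and 74.9 in labelled TiO2-H female. Both TiO2-H arrays were above both Sham arrays. The log2 difference was 0.23 (SE 0.07, 95% interval 0.02 to 0.43, limma adjusted p = 0.285), against a difference of 0.13 between the Sham arrays and 0.08 between the TiO2-H arrays. By label it was 0.25 on the male arrays and 0.21 on the female arrays, and with the TiO2-H arrays crossed it was 0.33 and 0.12. Of the 17158 mRNAs well above background on all 4 arrays, 8.66% had a larger log2 difference than Hmgcs1. Idi1, which interconverts the 5-carbon isoprenoid units, read 9.61, 9.78, 10.7 and 10.4 on the same arrays in that order. Its TiO2-H values were again both above the Sham values, which differed by 0.03 on the log2 scale. The log2 difference was 0.12 (SE 0.04, 95% interval 0.0033 to 0.24, limma adjusted p = 0.297), with 0.15 and 0.09 by label and 0.12 and 0.13 crossed.

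The remaining enzymes of this arm showed smaller differences. Acat2, the acetyl-CoA acetyltransferase of the first step, Mvk and Pmvk, the kinases that phosphorylate mevalonate, and Fdps, which joins isoprenoid units into farnesyl diphosphate, had log2 differences of 0.04, 0.08, 0.08 and 0.01. Mvd, the decarboxylase between the kinases and Idi1, was the only one of this arm below 0, at -0.10 (95% interval -0.27 to 0.07), with both TiO2-H arrays below both Sham arrays. Mvk had both TiO2-H arrays above both Sham arrays, and Acat2, Pmvk and Fdps had groups that overlapped.

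**Figure D2:**
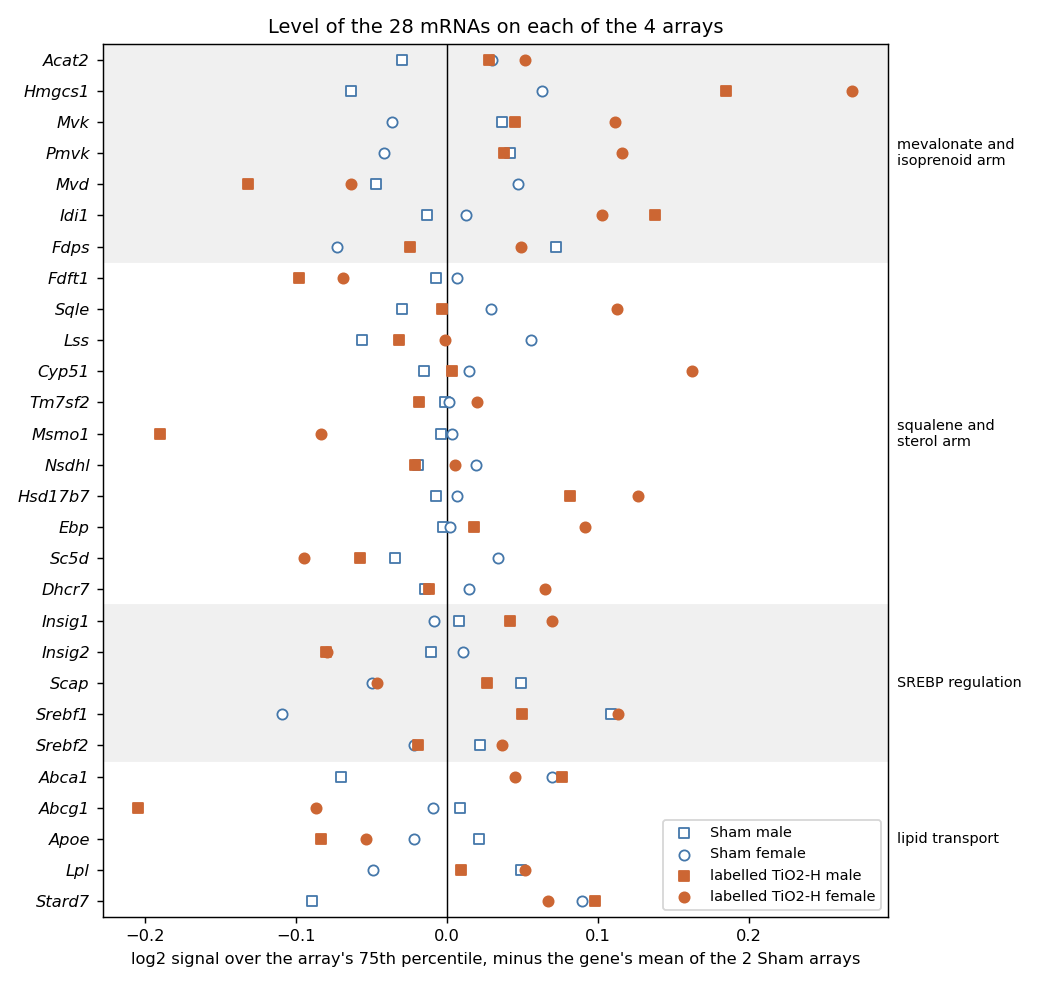
Log2 signal of each of the 28 mRNAs on each array, relative to the array's 75th percentile and to the gene's mean over the 2 Sham arrays (x axis), by role (y axis); open symbols are Sham, filled symbols TiO2-H, squares arrays labelled male and circles arrays labelled female. The TiO2-H symbols lie to the right of both Sham symbols in 6 genes, to the left in 7, and among them in 15.

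The squalene and sterol arm was centred on 0, with a median log2 difference of 0.0008 over its 11 genes, 6 above 0 and 5 below. Sqle, the squalene epoxidase that commits carbon to sterols, read 22.9, 23.8, 23.3 and 25.2 times the 75th percentile on the Sham male, Sham female, labelled TiO2-H male and labelled TiO2-H female arrays. The groups overlapped, and the log2 difference was 0.05 (SE 0.06, 95% interval -0.13 to 0.24, limma adjusted p = 0.653). Msmo1, the sterol C4-methyl oxidase, read 15.02, 15.09, 13.2 and 14.2. Both TiO2-H arrays were below the Sham arrays, which were almost equal, and the log2 difference was -0.14 (SE 0.05, 95% interval -0.30 to 0.03, limma adjusted p = 0.334). Hsd17b7, the 3-ketosteroid reductase of the same demethylation complex, read 1.001, 1.011, 1.065 and 1.099. Here both TiO2-H arrays were above the Sham arrays, with a log2 difference of 0.10 (SE 0.04, 95% interval -0.01 to 0.22, limma adjusted p = 0.326).

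Nsdhl, the decarboxylating dehydrogenase that acts between Msmo1 and Hsd17b7, had a log2 difference of -0.0075 and groups that overlapped. The 3 enzymes that remove the C4 methyl groups in turn therefore had differences of -0.14, -0.0075 and 0.10. Fdft1 (squalene synthase) and Sc5d (sterol C5-desaturase) had both TiO2-H arrays below both Sham arrays, at -0.08 and -0.08, and Ebp, the sterol isomerase, had both above, at 0.05. Lss (lanosterol synthase), Cyp51 (lanosterol 14-demethylase), Tm7sf2 (sterol C14-reductase) and Dhcr7, the last reductase of the cholesterol branch through 7-dehydrocholesterol, had log2 differences of -0.02, 0.08, 0.0008 and 0.03, with groups that overlapped. Nsdhl and Ebp lie on the X chromosome, and their Sham female and Sham male arrays differed by 0.04 and 0.0050 on the log2 scale.

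The regulators stood close to Sham. Srebf2, which encodes the SREBP that drives cholesterol synthesis, read 0.434, 0.421, 0.422 and 0.439 times the 75th percentile in the same order of arrays. The groups overlapped, with a log2 difference of 0.0090 (SE 0.04, 95% interval -0.12 to 0.14, limma adjusted p = 0.923). Srebf1, whose products also drive fatty acid synthesis, read 0.114, 0.0979, 0.109 and 0.114. The Sham female array was the low one, and Sham male and both TiO2-H arrays lay together. The log2 difference was 0.08 (SE 0.09, 95% interval -0.20 to 0.36, limma adjusted p = 0.665), and the gap between the Sham arrays, 0.22, was the largest between them for any member. Insig1, an SREBP target that restrains Scap, read 0.594, 0.587, 0.608 and 0.620. Both TiO2-H arrays were above both Sham arrays by a small margin, at a log2 difference of 0.06 (SE 0.04, 95% interval -0.06 to 0.17, limma adjusted p = 0.484). Insig2, its paralog, had both TiO2-H arrays below both Sham arrays, at -0.08 (95% interval -0.19 to 0.03), and Scap was at -0.0099 with groups that overlapped.

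Among the transport genes, Apoe, the main apolipoprotein of the brain, read 88.3, 85.7, 82.1 and 83.9 times the 75th percentile on the Sham male, Sham female, labelled TiO2-H male and labelled TiO2-H female arrays. Both TiO2-H arrays were below both Sham arrays, with a log2 difference of -0.07 (SE 0.04, 95% interval -0.19 to 0.05, limma adjusted p = 0.446). Abcg1, a transporter that hands sterol to lipoproteins, read 1.94, 1.92, 1.68 and 1.82. The array labelled TiO2-H male was the lowest, and the log2 difference of -0.15 (SE 0.06, 95% interval -0.32 to 0.03, limma adjusted p = 0.335) was the lowest of the 28 members. Abca1, which loads cholesterol onto apolipoproteins, read 1.353, 1.491, 1.497 and 1.465. Only the Sham male array stood apart, and the log2 difference was 0.06 (SE 0.07, 95% interval -0.14 to 0.26, limma adjusted p = 0.642).

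Stard7, a lipid transfer protein that moves phosphatidylcholine to mitochondria, read 16.1, 18.2, 18.3 and 17.9. As with Abca1, the Sham male array was low and the other 3 arrays lay together. The log2 difference was 0.08 (SE 0.08, 95% interval -0.15 to 0.32, limma adjusted p = 0.601), made of 0.19 under the male label and -0.02 under the female label. With the TiO2-H arrays crossed, the values were 0.16 against Sham male and 0.0088 against Sham female. Lpl, the lipoprotein lipase, was at 0.03 with groups that overlapped.

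Both TiO2-H arrays were above both Sham arrays in 6 of the 28 members (21.4%) and below them in 7 (25.0%). Over the 17158 mRNAs well above background on all arrays these shares were 30.9% and 25.7%. With no scaling between arrays, which moved the median of all mRNAs to 0.12, the members' counts were 24 above (85.7%) and 0 below. The shares of those mRNAs were then 64.9% and 4.42%. The members' share above was thus lower than that of those mRNAs with scaling and higher without it. With 2 arrays against 2, an exact permutation test cannot give a two-sided p under 0.33, so separation of the groups was not tested gene by gene. For 12 members (42.9%, against 43.4% of those mRNAs) the difference between exposures was larger than both differences between arrays of the same exposure.

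By sex label, 0 of 28 members passed 1.5-fold or 0.67-fold under the male label, where 2.87% and 2.24% of 18613 mRNAs did, and 0 under the female label, where 1.95% and 2.24% of 18897 did. Of the mRNAs that were, like the members, well above background on all 4 arrays, 3.55% passed either fold on the arrays of either label. That set was matched to the members by detection only and not by brightness. The members ranged from -0.21 (Abcg1) to 0.25 (Hmgcs1) in log2 difference under the male label and from -0.13 (Sc5d) to 0.22 (Srebf1) under the female label. Both labels gave a positive difference in 10 members, both a negative one in 8, and opposite signs in 10 (35.7%, against 30.9% of the mRNAs well above background on all arrays). With the TiO2-H arrays crossed, 0 members passed either fold, and the log2 differences ranged from -0.10 to 0.33 against Sham male and from -0.20 to 0.16 against Sham female. Both crossed differences were positive in 12 members and negative in 7, and 9 had opposite signs (32.1%, against 32.3% of those mRNAs).

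**Figure D3:**
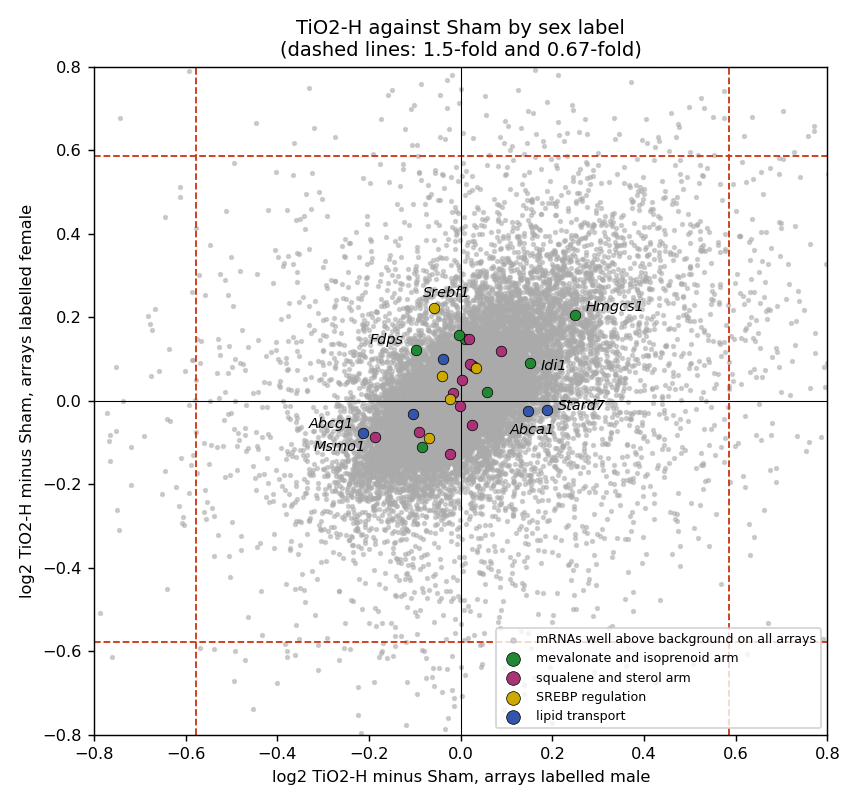
Log2 difference TiO2-H minus Sham under the male label (x axis) and under the female label (y axis) for 17158 mRNAs well above background on all 4 arrays (grey, 279 of them outside the axes) and for the 28 members, colored by role; dashed lines mark 1.5-fold and 0.67-fold. The members stay inside the dashed square, with Hmgcs1 farthest to the upper right and Abcg1 farthest to the left.

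Without exposure, the Sham female and Sham male arrays gave the size of difference that a pair of pools from the same dams shows, any sex difference included. None of the 28 members passed 1.5-fold or 0.67-fold between them, against 1.65% of the mRNAs well above background on all arrays. The robust SD of the members' log2 differences was 0.07 for Sham female minus Sham male and 0.07 for TiO2-H minus Sham. Over the mRNAs well above background on all arrays these values were 0.09 and 0.13. The first is a difference between single arrays and the second between means of 2 arrays, which average out more noise, so equal values do not mean equal size. The members were above Sham male on the Sham female array in 18 of 28 genes (64.3%, against 46.8% of those mRNAs). The array labelled TiO2-H female was above the array labelled TiO2-H male in 23 of 28 (82.1%, against 52.8%), by a median of 0.04 on the log2 scale. The exceptions were Idi1, Sc5d, Scap, Abca1 and Stard7, and the largest of these differences was that of Cyp51, at 0.16. These pairs of arrays are 1 pool each and carry no test. The sex labels of the TiO2-H pair went against the sex-linked mRNAs, so these shares cannot be read as the same direction by sex. The mRNAs they are set against were matched by detection only and not by brightness.

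A second probe was present for 9 of the 28 members, and 8 of these 9 probes were well above background on all arrays. For Insig2 it measured a second accession, at -0.13 against -0.08 for the brighter one. The second probe of Hsd17b7 gave 0.19 against 0.10, and that of Srebf2 gave 0.10 against 0.0090. Fdft1 was the exception: its dim second probe had processed signals of 42.8, 41.2, 147 and 51.4, high only on the array labelled TiO2-H male and not well above background on 1 array. It came to 3.22-fold under the male label and 1.14-fold under the female label, whereas the bright probe, with processed signals from 8617 to 8950, was at -0.09 and -0.08 on the log2 scale. Averaged over both probes, the log2 difference of Fdft1 was 0.43 (limma adjusted p = 0.49). Second and first probe had the same sign for 5 of the 9.

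Other genes of the pathway, from a list of 53 with a probe, were compared in the same fit. Of these, 49 were well above background on at least 1 array and 46 on all 4. In limma 8 of the 49 were higher (16.3%, against 10.4% of all mRNAs) and 2 lower (4.08%, against 6.23%) at an unadjusted p under 0.05, and 0 passed an adjusted p under 0.05. The median log2 difference of the 49 was 0.0010. Of the 46, both TiO2-H arrays were above both Sham arrays in 13 (28.3%) and below them in 13 (28.3%), against 30.9% and 25.7% of the mRNAs well above background on all arrays.

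The genes with an unadjusted p under 0.05 that were higher were the lipoprotein receptors Lrp1, Lrp8 and Scarb1, the nuclear receptor corepressor Ncor1, the fatty acid enzymes Acly and Elovl6 and the transporters Abca2 and Abca7, with log2 differences between 0.11 and 0.19. The 2 lower ones were Mbtps1, the protease that makes the first cut in SREBPs, at -0.13 and the desaturase Fads1 at -0.11.

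At the ends of the list, the sterol-binding protein Stard5 read 0.0828, 0.0701, 0.137 and 0.0749, high only on the array labelled TiO2-H male, at 1.65-fold under the male label and 1.07-fold under the female label. Soat1, which esterifies cholesterol, had a log2 difference of 0.19 (95% interval -0.21 to 0.59), and Elovl6, a fatty acid elongase, of 0.19 (95% interval 0.07 to 0.30, limma adjusted p = 0.277). Apob, an apolipoprotein of plasma lipoproteins, was well above background only on the Sham male array, where it was at least 5.37-fold higher than on the array labelled TiO2-H male. Apod, an apolipoprotein of glia, had a log2 difference of -0.20 (95% interval -0.42 to 0.02) and the lipase Lipe of -0.23 (95% interval -0.55 to 0.09), both with the TiO2-H arrays below the Sham arrays.

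**Figure D4:**
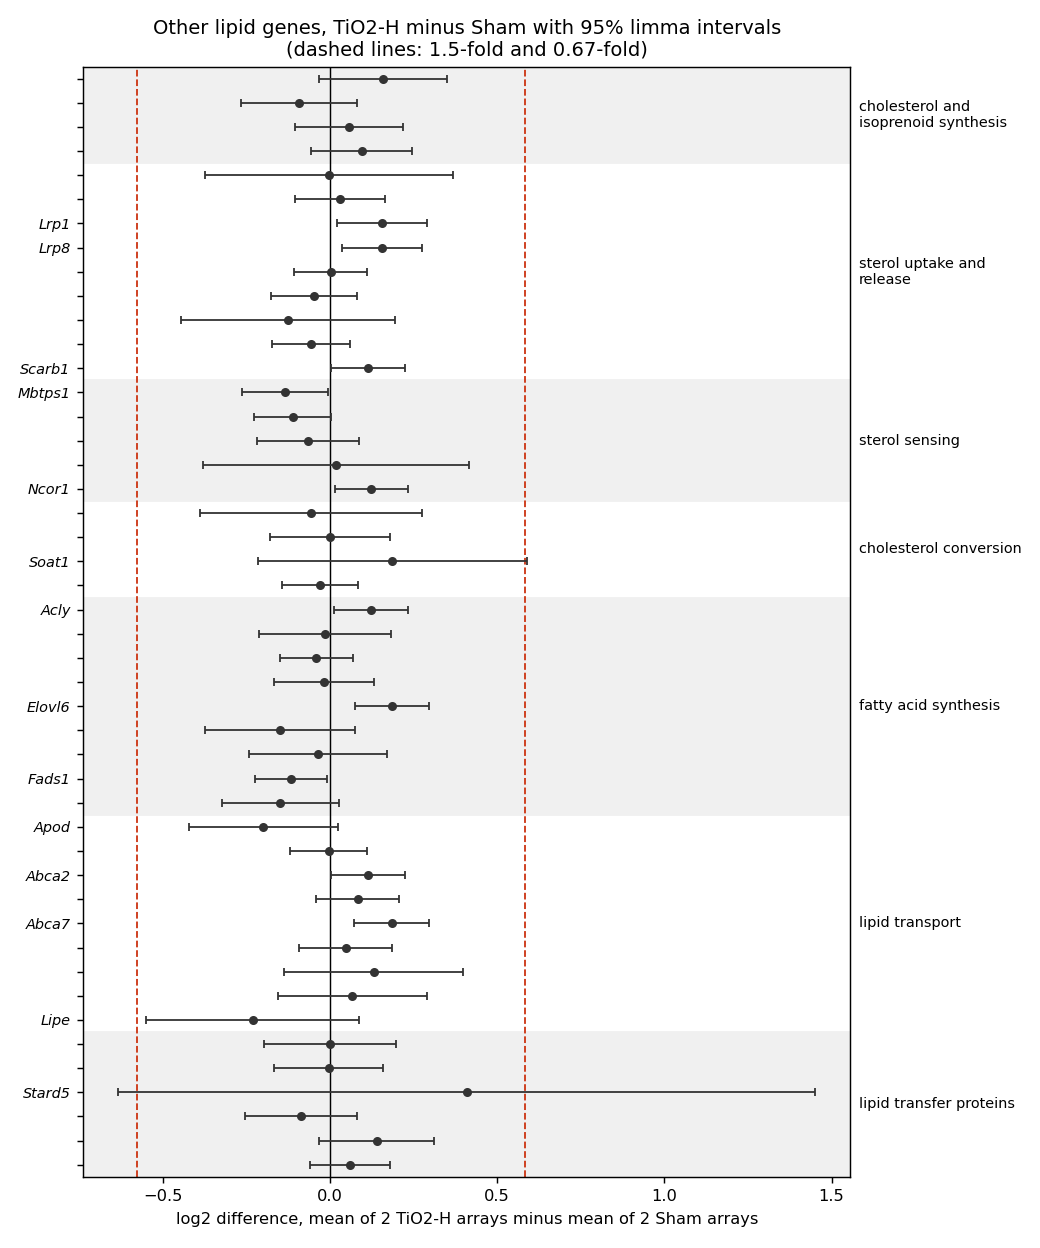
Log2 difference TiO2-H minus Sham (x axis) of the 46 other lipid genes well above background on all 4 arrays, by role (y axis, with the genes described in the text labelled), with 95% intervals of limma; dashed lines mark 1.5-fold and 0.67-fold. Stard5, at 0.41, has the widest interval, and Elovl6 and Abca7 stand at 0.19 and 0.18 with intervals above 0.

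Markers of the cell types in the tissue were read on the same arrays. Summed over a list, in multiples of the 75th percentile, the 4 microglial markers came to 11.8 and 11.5 on the Sham arrays and 12.8 and 12.9 on the TiO2-H arrays, and all 4 (Aif1, Csf1r, Cx3cr1, P2ry12) had both TiO2-H arrays above both Sham arrays. The 4 endothelial markers came to 7.92 and 7.64 against 8.82 and 8.82, with 2 of 4 so separated, and the 9 markers of the oligodendrocyte lineage to 23.3 and 23.2 against 24.9 and 25.6, with 5 of 9. The erythroid list came to 62.5 and 60.0 against 51.4 and 51.8, nearly all of it Hba-a1, with 2 of 3 markers so separated downwards. The 3 choroid plexus markers came to 84.8 and 82.5 against 80.0 and 81.2, with Ttr alone below on both TiO2-H arrays. The sums overlapped for the 6 neuronal markers (347 and 349 against 345 and 358) and the 7 astrocyte and radial glia markers (219 and 213 against 218 and 224), although single markers separated. Such sums weigh the brightest markers most. On the Sham male array Csf1r made 8.38 of the microglial 11.8 and Cldn5 6.59 of the endothelial 7.92. Ttr made 82.1 of the choroid plexus 84.8 there, and Stmn2 166 of the neuronal 347. Both TiO2-H arrays were above both Sham arrays for Dcx, Map2 and Snap25 of the neuronal list, at log2 differences of 0.15, 0.16 and 0.19, and below for Tubb3, at -0.05. In the astrocyte and radial glia list both were above for Slc1a3 and Fabp7 and below for Aldh1l1, Aldoc and Gfap. For comparison, of the 17158 mRNAs well above background on all arrays, 30.9% had both TiO2-H arrays above both Sham arrays and 25.7% had both below. The lists are short, and whether their counts differ from these shares was not tested. The part of the marker differences in the values of the members was not tested.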

How the data were processed

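Brain RNA was measured on 4 one-color arrays (Agilent design, Cy3), 1 pool per group. The authors deposited the scanner output and a value table, both as intensity from Feature Extraction 10.10.1.1 (background subtracted, no scaling between arrays), and the table equalled the processed signal.

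Signals were scaled to the 75th percentile of each array's 59305 spots other than controls and taken to log2. Between 138 and 181 outlier spots per array were left out, spots of a probe averaged, and a probe had to be well above background on at least 1 array. A dimmer value was raised to a floor, the lowest signal that array had well above background (23.3 to 31.7). The brightest probe stood for an accession, named through a RefSeq table (GRCm38.p6, 81.9% of 26197 accessions). TiO2-H was tested against Sham with limma 3.58.1 in R 4.3.3, without sex as a term, with Benjamini-Hochberg adjustment over 19463 accessions, after a test on simulated data. Pools are the replicates, and the 2 pools of an exposure were labelled male and female and came from the same dams. The p-values thus measure the spread between these 2 pools, any sex difference included, and no spread between independent litters. The number of pools limits the precision. Within a sex there was no test. Python 3.11.15, numpy 2.4.6 and pandas 2.3.3 were used otherwise.

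Members and lists were chosen with earlier results of these data known. Every member is accounted for. Given in full are the 5 with the largest log2 difference, any past 1.5-fold or 0.67-fold, and Hmgcs1, Sqle, Insig1, Srebf1, Srebf2, Apoe, Abca1 and Stard7. Other pathway genes were named if among the 3 largest differences in either direction or past a fold threshold, and those with an unadjusted p under 0.05 were added after their values were seen. Alternatives were no scaling, quantile normalization, normexp (offset 50, on median signals, since no mean signal was in the files used), the deposited table, other filters, floors and probe rules, sex as a term, each array left out, arrays crossed, 2-fold thresholds and, added later, the members without Hmgcs1. Methylation data were not analysed here, and some genes of the lists are not reported here.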

Additional observations from a re-analysis of the deposited data

Results flagged for a closer look

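In 10 of the 28 members the TiO2-H array lay above its Sham array for one sex label and below it for the other. With 1 array per group this difference was not tested, and the sex labels of the TiO2-H arrays went against the sex-linked mRNAs. The difference under the female label minus that under the male label, on the log2 scale, was 0.28 for Srebf1, 0.22 for Fdps, 0.16 for Pmvk, 0.14 for Lpl, 0.10 for Srebf2, 0.036 for Tm7sf2 and 0.026 for Scap. It was -0.21 for Stard7, -0.17 for Abca1 and -0.081 for Lss. For Srebf1, Fdps, Pmvk, Lpl, Scap, Stard7, Abca1 and Lss the 2 Sham arrays were farther apart than the 2 TiO2-H arrays. For Srebf2 and Tm7sf2 the Sham arrays were the closer pair. With the TiO2-H arrays crossed between the labels, 6 of the 10 (Pmvk, Srebf1, Srebf2, Abca1, Lpl and Stard7) had a positive difference in both crossed pairs, and Fdps, Lss, Tm7sf2 and Scap still had opposite signs. Opposite signs by label were also found in 30.9% of the mRNAs well above background on all 4 arrays.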

How the results depend on the processing

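No member reached an adjusted p under 0.05 in limma under any of the 15 alternatives (lowest adjusted p = 0.108), and the 2-fold threshold and the crossed arrays left the counts past a fold at 0. The differences of Hmgcs1 (0.16 to 0.29) and Idi1 (0.10 to 0.14) stayed above 0 throughout. Under no scaling the median of all mRNAs moved from 0.01 to 0.12, so gene values there are relative to it. The limma p-values without scaling, the lowest of 0.108 among them, belong to the differences before that median was removed. They thus include the shift of all mRNAs. No scaling put both TiO2-H arrays above both Sham arrays in 24 members (85.7%) and below in 0, against 64.9% and 4.42% of the mRNAs well above background on all arrays. At an unadjusted p under 0.05 in limma, 8 members (28.6%) were higher, against 29.2% of all mRNAs. That last count, 2 in the main setting, was 1 under normexp, with 1 lower and 136 mRNAs past the fold between the Sham arrays. It was 3 with the mean of a gene's probes, 1 with no filter and 1 without Hmgcs1 among the members. With sex as labelled as a term it was 1, and with sex crossed as a term 0. A share of all mRNAs at this p is given only for the main setting (10.4%) and for no scaling. The counts under the other settings therefore have no background beside them and are given as a description. Leaving out each array gave a median log2 difference of the members of 0.0003 (without the array labelled TiO2-H female) to 0.050. Counts of members with separated groups are not given for these fits. They cannot shrink with fewer arrays, and no share of all mRNAs stands beside them. With the mean of a gene's probes, Fdft1 was at 0.43, and 1 member passed the fold on the arrays labelled male.

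Of 420 gene values, 27 changed sign, all of genes at most 0.0833 from 0 in the main setting. Without scaling Tm7sf2 was at -0.0060 and under quantile normalization at -0.0007. Under normexp Nsdhl was at 0.020, Srebf1 at -0.018, Srebf2 at -0.066 and Lpl at -0.0008. With the mean of a gene's probes Tm7sf2 was at -0.010, Nsdhl at 0.023 and Lpl at -0.026. With single arrays left out, the ranges were -0.019 to 0.020 for Tm7sf2, -0.027 to 0.012 for Nsdhl, -0.027 to 0.19 for Srebf1, -0.019 to 0.037 for Srebf2, -0.018 to 0.080 for Lpl, -0.059 to 0.040 for Scap, -0.0090 to 0.13 for Abca1, -0.0066 to 0.17 for Stard7, -0.060 to 0.085 for Fdps, -0.072 to 0.039 for Lss, -0.0031 to 0.11 for Sqle and -0.011 to 0.065 for Dhcr7. The cause was not tested. The replicate number was the same in all groups and gave no pairing of arrays. The fits with sex as a term pair the exposures by sex, with 1 residual degree of freedom.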
